A study of Mus musculus with 24 samples.

Results

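The comparison set RNA precipitated with tagged ribosomes (IP) against RNA of the whole dentate gyrus (input) at day 11, the earliest of the 3 time points of the series. It used 8 of the 24 libraries, chosen by their labels for fraction and day: 4 IP libraries and 4 input libraries. In each fraction, 2 libraries (a and b) came from running mice and 2 from sedentary mice. All mice were female C57BL6 animals with a Nestin promoter-driven CreERT2 transgene and 1 tagged copy of the ribosomal protein gene Rpl22 (RPL22HA/WT), so IP and input came from the same genotype and treatment. At 9 to 11 weeks of age all of them received tamoxifen by injection, 160 mg per kg on each of 5 days. Running mice lived alone with a wheel that turned, and sedentary mice lived in the same kind of cage with the wheel glued in place. The labels give 11 days as the treatment time and do not say from which event it was counted, how many mice went into a library, or that libraries came from separate mice. The p-values below therefore measure the spread between these libraries, which may be technical.

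Neurons are added to the dentate gyrus throughout adult life. Radial glia-like stem cells in the subgranular zone divide to give intermediate progenitors, these give neuroblasts, and neuroblasts mature over weeks into granule neurons. Tamoxifen lets CreERT2 act in cells in which the Nestin promoter is active, which in this tissue are chiefly stem and progenitor cells. Recombination adds a haemagglutinin tag to Rpl22 in these cells and in all their descendants, and an antibody to the tag then pulls down their ribosomes with the RNA on them (RiboTag). The input holds RNA of every cell type, the tagged cells included. In bulk RNA of this kind, fewer cells of a type and less RNA per cell cannot be told apart. The labels assign the IP to immature neurons, and the marker lists below were set beside that label. The lists were chosen with earlier results of these data known, so they are no independent check of it.

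Values are TPM (transcripts per 1000000), which sum to the same total in each library and keep no read depth. The 4 values of a gene are always given in the order running a, running b, sedentary a and sedentary b. Rpl22 itself stood at 168, 162, 202 and 153 TPM in IP libraries against 152, 249, 159 and 194 TPM in input libraries, with overlap between the fractions and a log2 difference of −0.12 ± 0.19 (SE, adjusted p = 0.643). Its TPM counts tagged and untagged copies alike and does not show recombination. Across genes, the Pearson correlation of log2(TPM + 1) was 0.962 to 0.986 between libraries of the same fraction and 0.914 to 0.942 between fractions. The median gene stood at 6.20 to 8.55 TPM in IP libraries against 4.43 to 5.63 TPM in input libraries. Among the libraries, 2 stood apart. Rpph1, the RNA of ribonuclease P, took 17.4% of all TPM in the IP library running a, against 5.96 to 7.003% in the other IP libraries and 4.01 to 5.85% in the input libraries. Olfactory receptor genes, which mark background signal in brain tissue, averaged 2.58 TPM in the input library sedentary a, against 0.565 to 1.40 TPM in the IP libraries and 0.518 to 0.709 TPM in the other input libraries. Of 170 olfactory receptor genes tested, 2 were higher and 2 lower in the IP, and without these 2 libraries 5 were higher and none lower. Without the input library sedentary a alone 9 were higher, and without the input library sedentary b 28 were lower. Where a list count moved by over 1.5 times without the 2 libraries, the count without them is given beside it. Counts of 1 or 2 members in a direction often changed when a single library was left out.

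A total of 16184 genes with a mean of at least 1 TPM were compared between the 4 IP and the 4 input libraries with limma on log2(TPM + 1), a scale that understates the change of low genes. At an adjusted p under 0.05, 4673 genes (28.9%) were higher in the IP and 1851 (11.4%) were lower. Of these, 1690 (10.4%) were at least 2-fold higher and 416 (2.57%) at least 2-fold lower. The median of all genes tested was itself 0.26 above 0 on the log2 scale, and 65.9% of genes had a positive difference. After scaling by median of ratios the median was 0.06 and the split became 3289 higher and 3263 lower, with 1010 and 849 past 2-fold, so a single difference is best read against 0.26. Likewise, the count of a list is best read against the 28.9% higher and 11.4% lower of all genes. A list count after median of ratios is best read against the 3289 higher and 3263 lower of 16184 genes. Where a difference of a list member is given without its standard error (SE), that error was 0.196 in the median and at most 1.13 among called members. Without the 2 libraries that stood apart, 4095 of 15935 genes were higher and 1148 lower. List counts given without these 2 libraries are best read against those numbers. Without the IP library running b, 3112 genes were higher.

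Markers of radial glia-like stem cells were higher in the IP. Of 21 tested, 16 were higher, 13 of them at least 2-fold, and none was lower, with a median log2 difference of 1.16 (0.94 after median of ratios). Nes, the filament protein whose promoter drives the Cre, stood at 38.4, 55.98, 50.1 and 63.4 TPM in IP libraries against 11.8, 15.9, 13.9 and 14.4 TPM in input libraries. No IP value reached down to the input values, and the difference was 1.81 ± 0.18 on the log2 scale (SE, adjusted p = 6.60e-06). Notch2, a receptor that keeps stem cells quiescent (chromosome 3, 98013527 to 98150361, plus strand of GRCm38), stood at 72.8, 106, 105 and 131 TPM in IP libraries against 18.6, 13.0, 15.9 and 14.9 TPM in input libraries. Its fractions did not overlap either, with a log2 difference of 2.64 ± 0.18 (SE, adjusted p = 2.27e-07). Notch1, the receptor that maintains the stem cell pool, stood at 42.5, 66.4, 61.4 and 76.6 TPM in IP libraries against 14.7, 8.87, 11.2 and 11.9 TPM in input libraries, with a log2 difference of 2.30 ± 0.20 (SE, adjusted p = 1.98e-06). The filament gene Vim differed by 2.12 and Thbs4, which encodes a matrix protein of adult neural stem cells, by 1.90, each without overlap.

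Sox2, a transcription factor of stem cells and astrocytes, was higher with 47.7, 62.8, 61.6 and 66.1 TPM in IP libraries against 31.3, 31.2, 18.97 and 41.2 TPM in input libraries. Its difference was 0.97 ± 0.21 (SE, adjusted p = 0.00302). Hopx, a marker of quiescent stem cells, averaged 179 ± 23.7 TPM in IP libraries against 67.8 ± 16.6 TPM in input libraries (SD, n = 4 each) and had a log2 difference of 1.42 ± 0.19 (SE, adjusted p = 9.42e-05). The 5 members that missed the threshold were Gfap, Id1, Id3, Sox21 and Hes1. Gfap, the filament of stem cells and astrocytes, stood at 281, 458, 502 and 486 TPM in IP libraries against 331, 349, 285 and 305 TPM in input libraries, with a log2 difference of 0.41 ± 0.19 (SE, adjusted p = 0.102). The IP library running a was the lowest of the 4 IP values of Gfap, and without it the difference was 0.58 (adjusted p = 0.0303). Astrocytes share many of these genes, so a separate list of 18 astrocyte markers was compared. Of these, 6 were higher and 5 lower (28.9% and 11.4% over all genes), or 3 and 3 without the 2 libraries that stood apart. The higher count was also 3 without the IP library running b, the IP library sedentary b or the input library sedentary b, and the lower count 3 without the IP library sedentary a or the input library sedentary b. The list summed to 2942 to 4931 TPM in IP libraries against 3633 to 4395 TPM in input libraries, and no marker was at 0 in all libraries. Their part in the stem cell result was not tested.

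**Figure D1:**
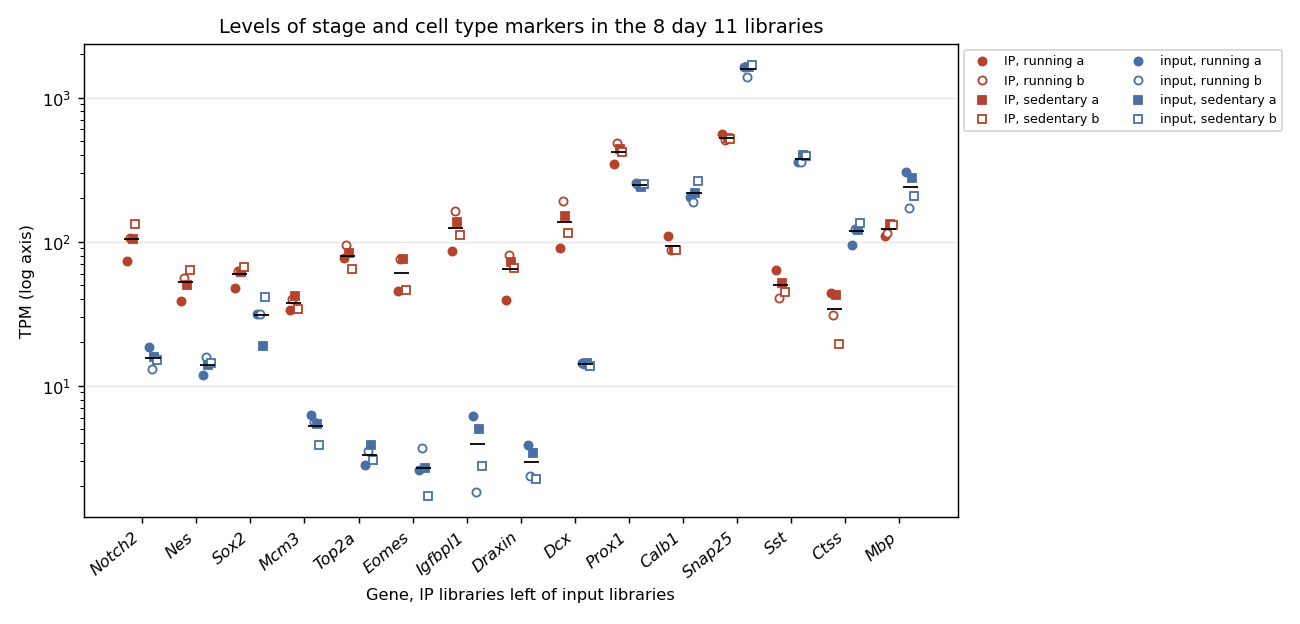
TPM (log axis) of 15 marker genes in the 8 day 11 libraries, IP left of input for each gene, 1 point per library. From Notch2 to Prox1 the IP points lie higher, as for Top2a with 64.5 to 95.3 TPM in IP libraries against 2.82 to 3.85 TPM in input libraries, and from Calb1 to Mbp they lie lower, as for Sst with 40.8 to 63.4 TPM in IP libraries against 355 to 399.5 TPM in input libraries.

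Genes of dividing cells were largely higher in the IP. All 25 genes of G2 phase and mitosis were at least 2-fold higher in the IP, with a median log2 difference of 2.29 (2.11 after median of ratios). Leaving out the 2 libraries that stood apart also gave 25 of 25. Top2a, the topoisomerase that untangles replicated DNA (chromosome 11, 98992943 to 99024189, minus strand), stood at 76.5, 95.3, 82.7 and 64.5 TPM in IP libraries against 2.82, 3.53, 3.85 and 3.03 TPM in input libraries. Every IP value was far above every input value, and Top2a had a log2 difference of 4.22 ± 0.18 (SE, adjusted p = 1.34e-09). Tpx2, which nucleates the spindle, stood at 45.0, 52.7, 54.3 and 38.5 TPM in IP libraries against 3.21, 3.86, 4.64 and 3.34 TPM in input libraries, again with no overlap and with a log2 difference of 3.35 ± 0.19 (SE, adjusted p = 4.39e-08). Mki67, the proliferation marker Ki-67, stood at 26.4, 31.6, 31.8 and 18.03 TPM in IP libraries against 4.07, 3.50, 4.69 and 3.38 TPM in input libraries. It too separated the fractions, with a log2 difference of 2.48 ± 0.21 (SE, adjusted p = 2.01e-06). Cenpf, a kinetochore protein, Prc1, which bundles the spindle midzone, and Ccna2, cyclin A, differed by 2.77, 2.60 and 2.58. Summed over the list, the mitotic genes reached 451 to 609.9 TPM in IP libraries against 70.0 to 104 TPM in input libraries.

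Of 26 genes of the G1/S transition and DNA replication, 20 were higher in the IP, 18 of them at least 2-fold, and 1 was lower. The median log2 difference was 1.64. Uhrf1, which carries DNA methylation through replication, stood at 20.1, 34.03, 27.7 and 23.4 TPM in IP libraries against 1.68, 1.88, 3.06 and 1.54 TPM in input libraries, and Mcm3, a subunit of the replicative helicase, at 33.7, 39.8, 41.8 and 34.3 TPM in IP libraries against 6.23, 5.59, 5.40 and 3.86 TPM in input libraries. Neither gene overlapped between fractions, with differences of 3.17 ± 0.23 for Uhrf1 and 2.62 ± 0.18 for Mcm3 (SE, adjusted p = 3.95e-07 and 2.54e-07). Mcm7 of the same helicase differed by 2.28, and the ribonucleotide reductase subunits Rrm1 and Rrm2, which supply deoxynucleotides, by 1.85 and 3.02. The exception was Ccne1, cyclin E1, at 11.1, 9.67, 10.5 and 11.3 TPM in IP libraries against 17.4, 19.6, 17.7 and 20.4 TPM in input libraries, which was lower in the IP, with a log2 difference of −0.76 ± 0.17 (SE, adjusted p = 0.00289). Replication-dependent histone genes, whose RNA is made in S phase, followed with 56 of 65 higher and 52 past 2-fold. None of them was lower, and 1 was without the 2 libraries that stood apart. Hist1h3b stood at 134, 153, 159 and 90.4 TPM in IP libraries against 6.33, 5.59, 2.97 and 3.11 TPM in input libraries, with a log2 difference of 4.64 ± 0.19 (SE, adjusted p = 9.91e-10). Histone copies are nearly identical in sequence, so which copy a read belongs to is uncertain. Their RNAs lack poly(A) tails, and the libraries were made from total RNA.

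The promoters of the mitotic genes are shown because these genes moved together. The 110 bases before the start site of 6 of them follow, from RefSeq on GRCm38.p6, 5′ to 3′ along the gene, all on the minus strand. Capitals mark the CCAAT box (CCAAT, or ATTGG on the other strand) bound by the factor NF-Y, and the motif TTTGAA (or TTCAAA), known as the cell cycle homology region of mitotic genes. The windows are chr11:99024190-99024299 for Top2a, chr10:69352913-69353022 for Cdk1, chr13:100786487-100786596 for Ccnb1, chr9:70421555-70421664 for Ccnb2, chr4:118437344-118437453 for Cdc20 and chr1:189688087-189688196 for Cenpf.
Top2a: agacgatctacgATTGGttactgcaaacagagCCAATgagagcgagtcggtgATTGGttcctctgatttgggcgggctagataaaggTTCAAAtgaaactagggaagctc
Cdk1: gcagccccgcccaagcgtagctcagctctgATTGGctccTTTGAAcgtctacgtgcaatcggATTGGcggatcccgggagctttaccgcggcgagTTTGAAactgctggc
Ccnb1: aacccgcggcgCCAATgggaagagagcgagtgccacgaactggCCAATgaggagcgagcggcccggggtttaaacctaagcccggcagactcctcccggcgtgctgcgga
Ccnb2: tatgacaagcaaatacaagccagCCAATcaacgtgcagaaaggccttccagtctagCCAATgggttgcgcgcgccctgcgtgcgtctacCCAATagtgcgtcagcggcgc
Cdc20: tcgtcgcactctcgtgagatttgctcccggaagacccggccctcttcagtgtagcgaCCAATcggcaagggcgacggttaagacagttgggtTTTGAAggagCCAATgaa
Cenpf: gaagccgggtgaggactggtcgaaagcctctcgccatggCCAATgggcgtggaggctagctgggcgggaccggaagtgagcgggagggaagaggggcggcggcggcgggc
Top2a and Ccnb2 held 3 CCAAT boxes each in this window, Cdk1, Ccnb1 and Cdc20 held 2 each, and Cenpf held 1. Ccnb1, Ccnb2 and Cenpf held no TTTGAA in it. Of these genes, Cdk1, the kinase that starts mitosis, stood at 6.31, 7.24, 5.98 and 5.65 TPM in IP libraries against 1.05, 1.33, 1.69 and 0.290 TPM in input libraries, and its cyclin Ccnb1 at 14.1, 15.7, 20.04 and 11.9 TPM in IP libraries against 1.90, 0.630, 5.00 and 1.08 TPM in input libraries. No value overlapped for Cdk1 or Ccnb1, whose differences were 1.85 and 2.55.

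Within 250 bases before the start, CCAAT was found on either strand in 19 of the 21 mitotic genes with a RefSeq promoter (90.5%), against 39.9% of 11756 tested genes with one. Its share was also 66.7% in progenitor, 55.6% in stem cell, 54.5% in neuroblast and 52.4% in replication genes. It was 40.0% in immature granule neuron, 38.9% in mature granule neuron and 31.2% in interneuron genes. TTTGAA was found in 8 of 21 mitotic genes (38.1%), against 13.2%, and in 4 of 18 mature granule neuron genes (22.2%). For the replication genes the motif of E2F factors, TTTCCCGC or TTTGGCGC, was found in 5 of 21 (23.8%), against 2.53%. The same motif was found in 2 of 18 stem cell genes (11.1%). In stem cell genes TGGGAA, the core bound by the Notch effector RBPJ, was found in 8 of 18 (44.4%), against 24.1%, but also in 9 of 21 replication genes (42.9%) and 4 of 11 neuroblast genes (36.4%). CAGATG, an E-box form bound by Neurod1-type factors, was found in 4 of 11 neuroblast genes (36.4%), against 12.6%. All searches covered both strands. These matches describe letters in a window and show no binding.

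Intermediate progenitor markers followed the same direction. Of 15 tested, 12 were higher in the IP, 11 at least 2-fold, and none was lower, with a median of 1.72. Eomes, the transcription factor Tbr2 that defines this stage (chromosome 9, 118478212 to 118486132, plus strand), stood at 45.3, 75.7, 75.9 and 46.3 TPM in IP libraries against 2.60, 3.70, 2.67 and 1.72 TPM in input libraries. Its lowest IP value was more than 10 times its highest input value, and Eomes had a log2 difference of 4.05 ± 0.23 (SE, adjusted p = 5.93e-08). Insm1, which promotes the basal progenitor state, stood at 15.9, 19.9, 22.7 and 18.9 TPM in IP libraries against 1.98, 1.26, 2.05 and 1.11 TPM in input libraries. The fractions did not overlap, with a log2 difference of 2.98 ± 0.22 (SE, adjusted p = 4.57e-07). Neurog2, a proneural factor, differed by 2.77 and Tfap2c, a factor of intermediate progenitors, by 2.81. Mfng, Btg2 and Rhbdl3 missed the threshold.

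Neuroblast markers were higher in 13 of 15 genes, 11 of them at least 2-fold, with a median of 1.85. Igfbpl1, a protein of newborn neurons related to the insulin-like growth factor binding proteins (chromosome 4, 45809468 to 45826923, minus strand), stood at 85.7, 162, 136 and 111 TPM in IP libraries against 6.17, 1.83, 5.03 and 2.76 TPM in input libraries. Every IP value exceeded every input value, with a log2 difference of 4.71 ± 0.33 (SE, adjusted p = 1.34e-05). Draxin, a guidance protein that repels axons, stood at 39.3, 80.9, 72.6 and 65.8 TPM in IP libraries against 3.88, 2.36, 3.40 and 2.24 TPM in input libraries, and Sema3c, a secreted semaphorin, at 221, 378, 281 and 205 TPM in IP libraries against 25.2, 28.6, 18.1 and 21.4 TPM in input libraries. Both were separated between fractions, by 4.02 ± 0.23 for Draxin and 3.46 ± 0.19 for Sema3c (SE, adjusted p = 1.15e-07 and 3.47e-08). Neurod1, required for newborn granule neurons to survive, stood at 292, 336, 336 and 233 TPM in IP libraries against 72.9, 90.8, 82.1 and 92.4 TPM in input libraries. It had a log2 difference of 1.80 ± 0.18 (SE, adjusted p = 6.46e-06). Sox4, a factor of early neuronal differentiation, Cd24a, a surface protein of neuroblasts, and St8sia2, which builds polysialic acid on NCAM, differed by 3.02, 2.80 and 2.76.

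Calb2, the calretinin gene that early postmitotic granule neurons express, stood at 457, 463, 368 and 193 TPM in IP libraries against 206, 243, 221 and 258 TPM in input libraries, with a log2 difference of 0.59 ± 0.21 (SE, adjusted p = 0.0343). Interneurons and mossy cells also express Calb2. Its call was lost after median of ratios (0.36, adjusted p = 0.256) and without the 2 libraries that stood apart (0.54, adjusted p = 0.197). Neurod2 and Rnd2 missed the threshold.

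Immature granule neuron genes split. Of 18 tested, 10 were higher, 8 at least 2-fold, and 2 were lower, with a median of 0.63. Median of ratios left 9 higher and made 6 lower, and without the 2 libraries that stood apart 1 was lower. Dcx, the microtubule protein doublecortin that marks neuroblasts and immature neurons, stood at 90.5, 192, 149 and 114 TPM in IP libraries against 14.4, 14.2, 14.2 and 13.7 TPM in input libraries. The input values of Dcx were close together and the IP values all lay far above them, with a log2 difference of 3.13 ± 0.21 (SE, adjusted p = 5.24e-07). Dpysl5 and Dpysl3, cytoskeletal regulators of growing axons, differed by 3.22 ± 0.18 and 2.89 ± 0.18 (SE, adjusted p = 3.47e-08 and 1.33e-07), and the tubulin gene Tubb2b by 2.39. Prox1, the transcription factor that all granule cells keep, stood at 344, 481, 439.9 and 416 TPM in IP libraries against 257, 249, 238 and 251 TPM in input libraries. The IP was higher by 0.75 ± 0.18 (SE, adjusted p = 0.00430). The 2 lower members were Gap43 and Basp1, growth cone proteins that mature neurons also express, with 38.3, 43.95, 51.4 and 51.5 TPM in IP libraries against 62.05, 106, 59.6 and 83.6 TPM in input libraries for Gap43. They differed by −0.71 for Gap43 and −0.72 for Basp1.

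Mature granule neuron and synapse genes were lower in the IP. Of 24 tested, 19 were lower, 13 at least 2-fold, and none was higher, with a median of −1.18 (−1.41 after median of ratios). The count was also 19 without the 2 libraries that stood apart. Calb1, calbindin of mature granule cells, stood at 109.96, 87.05, 87.4 and 87.5 TPM in IP libraries against 203, 189.6, 219 and 263 TPM in input libraries, with a log2 difference of −1.22 ± 0.16 (SE, adjusted p = 6.94e-05). Vsnl1, a neuronal calcium sensor, stood at 116, 74.3, 91.8 and 70.2 TPM in IP libraries against 366, 343, 349 and 367 TPM in input libraries. Its fractions lay far apart, with a log2 difference of −2.03 ± 0.18 (SE, adjusted p = 3.07e-06). Snap25, a SNARE protein of transmitter release, stood at 557, 506, 526 and 512 TPM in IP libraries against 1636, 1397, 1621 and 1668 TPM in input libraries. The IP was lower, with a log2 difference of −1.58 ± 0.19 (SE, adjusted p = 2.62e-05). The postsynaptic calmodulin binder Nrgn, the synaptic organizer C1ql2 and the vesicle calcium sensor Syt1 differed by −1.75, −1.42 and −1.51. The whole list still summed to 5037 to 5699 TPM in IP libraries against 12070 to 14210 TPM in input libraries, and no member was at 0 in all libraries. Beside the label of immature neurons, the IP thus held raised stem, dividing and neuroblast transcripts and a measurable level of mature neuron transcripts. The part of RNA carried over from untagged cells in these levels was not tested.

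**Figure D2:**
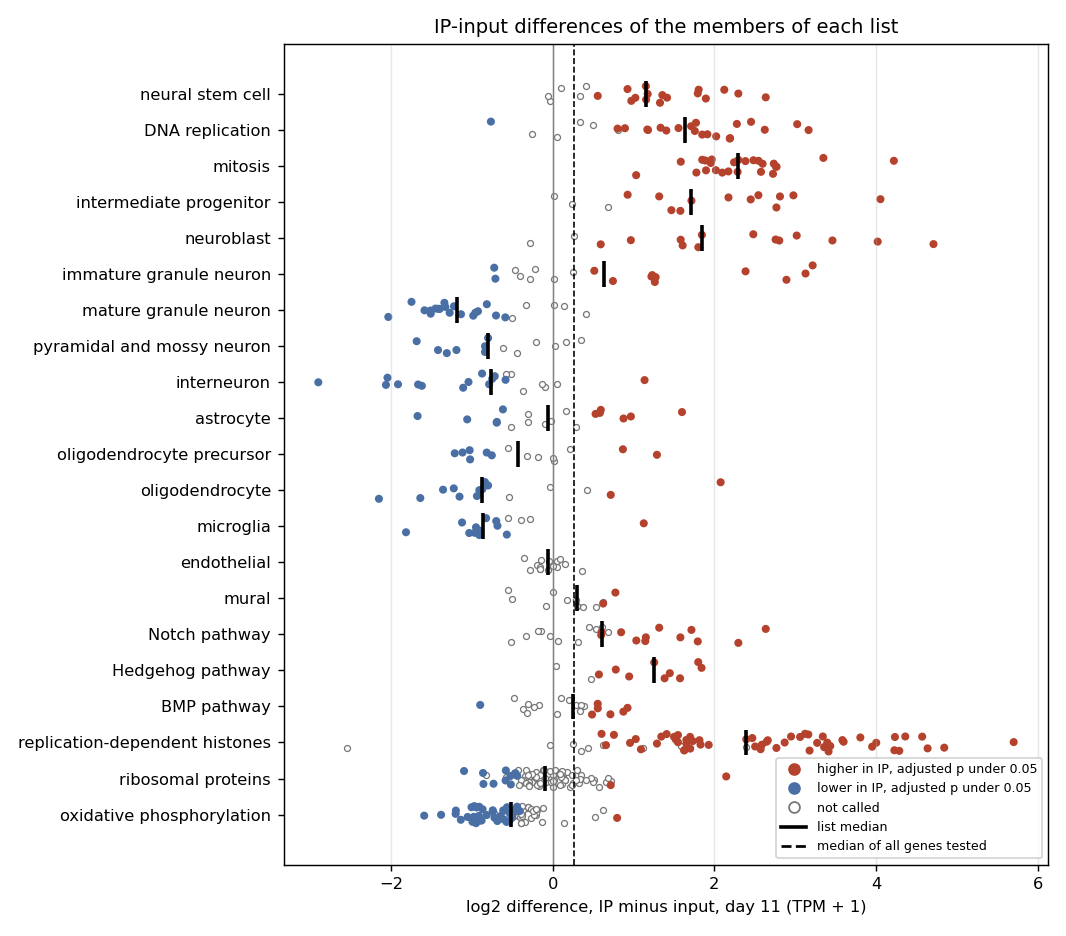
Log2 difference, IP minus input, of every tested member (points) of 21 lists with the list median (black bars) and the median of all genes tested (dashed line at 0.26). The medians run from 2.40 for histone genes and 2.29 for mitosis down to −1.18 for mature granule neurons.

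More markers of interneurons, microglia and oligodendrocytes were lower than higher in the IP. Of 20 interneuron genes 13 were lower and 1 was higher, with a median of −0.77. Sst, the somatostatin peptide of hilar interneurons (chromosome 16, 23889573 to 23890958, minus strand), stood at 63.4, 40.8, 51.8 and 44.4 TPM in IP libraries against 356, 355, 399.5 and 391 TPM in input libraries, and Gad2, the enzyme that makes GABA, at 21.9, 23.8, 24.6 and 25.4 TPM in IP libraries against 74.1, 73.9, 73.8 and 80.3 TPM in input libraries. Neither overlapped, and the IP was lower, with log2 differences of −2.90 ± 0.17 for Sst and −1.62 ± 0.14 for Gad2 (SE, adjusted p = 7.88e-08 and 2.58e-06). Pvalb, parvalbumin of basket cells, differed by −2.06 and Cck, a peptide of another basket cell class, by −1.91. The exception was Dlx6, a homeobox gene of the interneuron lineage, which was 1.14 higher. CA pyramidal and mossy neuron genes were lower in 7 of 13, and none was higher. Without the 2 libraries that stood apart, 4 were lower and 1 higher. Pcp4, of CA2 neurons and granule cells, stood at 404, 336, 300.1 and 279.5 TPM in IP libraries against 716, 927, 775 and 839 TPM in input libraries, with a log2 difference of −1.31 ± 0.18 (SE, adjusted p = 1.07e-04).

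Microglia genes were lower in 12 of 16 and higher in 1, and in 6 of 16 without the 2 libraries that stood apart. Cx3cr1, the fractalkine receptor of microglia, stood at 11.4, 14.8, 12.8 and 10.5 TPM in IP libraries against 23.8, 25.3, 24.1 and 21.99 TPM in input libraries, with a log2 difference of −0.90 ± 0.17 (SE, adjusted p = 9.48e-04). Siglech, a sialic acid binding receptor, was the 1 gene that went the other way, with 26.4, 32.4, 31.6 and 30.3 TPM in IP libraries against 13.5, 15.1, 12.2 and 12.2 TPM in input libraries and a log2 difference of 1.13 ± 0.16 (SE, adjusted p = 1.22e-04). Oligodendrocyte genes were lower in 10 of 15 and higher in 2, with a median of −0.87, but their summed TPM was larger in each IP library than in any input library, at 1159 to 1548 TPM in IP libraries against 754 to 1080 TPM in input libraries. A positive difference was seen in 3 of the 15 genes, the largest at 2.08, so the larger sum does not describe most members. Of the 2 higher genes, 1 was at least 2-fold higher. The higher count was 1 after median of ratios, and also 1 without the IP library running a or sedentary b. Mbp, myelin basic protein, stood at 109.5, 115, 132 and 129.97 TPM in IP libraries against 304, 171, 276 and 206 TPM in input libraries. It was lower with a log2 difference of −0.94 ± 0.20 (SE, adjusted p = 0.00203), and missed the threshold without the 2 libraries that stood apart (−0.81, adjusted p = 0.0583). Mal, another myelin protein, differed by −2.15. Aspa, aspartoacylase, the other higher gene, had 6.33, 4.63, 4.84 and 6.47 TPM in IP libraries against 3.03, 2.89, 2.65 and 3.29 TPM in input libraries. Its values did not overlap, with a log2 difference of 0.72 ± 0.22 (SE, adjusted p = 0.0202). Oligodendrocyte precursor genes were lower in 6 of 14 and higher in 2, with −1.03 for the growth factor receptor Pdgfra among the lower genes. The 2 higher genes were Cacng4, an auxiliary subunit of AMPA receptors, at 1.29 and Vcan, a matrix protein, at 0.87.

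None of 15 endothelial genes passed the threshold in limma. Of them 0 had an unadjusted p under 0.05, against 7981 of 16184 genes. Kdr, the vascular growth factor receptor, was the 1 endothelial gene without overlap, lower in the IP. The share of all genes without overlap is not given here. Cldn5, the tight junction protein of brain vessels, stood at 3.88, 7.39, 5.03 and 6.47 TPM in IP libraries against 13.7, 2.09, 4.99 and 6.95 TPM in input libraries, with a log2 difference of −0.06 ± 0.46 (SE, adjusted p = 0.934). Pericyte and smooth muscle genes were higher in 2 of 13, among them Pdgfrb by 0.78. Astrocyte genes had a median of −0.06. Among them Mfge8, a secreted protein that stem cells also make, was higher by 1.60 ± 0.20, while S100b, of mature astrocytes, was −1.67 ± 0.22 and Aqp4, the water channel of astrocyte endfeet, −1.06 ± 0.17 (SE each, adjusted p = 5.80e-05, 9.99e-05 and 2.67e-04). Median of ratios made the astrocyte count 3 higher and 8 lower. Of 9 ependymal and choroid plexus genes 3 were higher and 2 lower, or 5 and none without the 2 libraries that stood apart. Of 10 meningeal fibroblast genes 3 were higher and 2 lower. Over all genes tested, 28.9% were higher and 11.4% lower.

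Signalling pathways of the niche were followed by role. In the Notch pathway, by which neighbouring cells hold each other undifferentiated, 12 of 23 genes were higher and none lower, with a median of 0.62. Among these 23 genes, 10 also stand in other lists, and median of ratios left 11 higher and made 2 lower. Besides the receptors Notch1 and Notch2, the ligand Dll1 stood at 10.4, 16.3, 17.8 and 17.8 TPM in IP libraries against 4.77, 2.73, 4.07 and 4.46 TPM in input libraries. It had a log2 difference of 1.72 ± 0.22 (SE, adjusted p = 4.98e-05). The ligand Dll3 and the glycosyltransferase Lfng, which tunes the receptors, differed by 1.58 and 1.79. Downstream, the DNA-binding effector Rbpj and the target Hes5 differed by 1.03 and 1.15, and the target Hes1 had −0.03, short of the threshold (adjusted p = 0.923).

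Sonic hedgehog keeps adult stem cells dividing, and 9 of 11 tested genes of its pathway were higher in the IP, 6 at least 2-fold, with a median of 1.26. The co-receptor Cdon stood at 31.1, 43.9, 46.1 and 48.5 TPM in IP libraries against 14.7, 10.8, 14.5 and 13.8 TPM in input libraries, with a log2 difference of 1.58 ± 0.17 (SE, adjusted p = 1.49e-05). Gli1, both effector and target of the pathway, stood at 3.84, 7.31, 6.86 and 7.52 TPM in IP libraries against 1.51, 0.640, 1.25 and 0.760 TPM in input libraries. It was low in the input and higher in each IP library, with a log2 difference of 1.84 ± 0.27 (SE, adjusted p = 1.70e-04). The co-receptor Gas1 differed by 1.80 and the transcription factor Gli3 by 1.45. Of 20 genes of the BMP pathway, which holds stem cells quiescent, 6 were higher, a share near the 28.9% of all genes, and 1 was lower, and after median of ratios 3 each. The higher count was 3 without the IP library running b, sedentary a or sedentary b, or without the input library sedentary a. The effectors Smad5 and Smad1 differed by 0.87 and 0.71, and the secreted antagonist Nog, noggin, by −0.90 with 1.94, 1.72, 1.93 and 1.44 TPM in IP libraries against 5.06, 3.22, 3.51 and 4.95 TPM in input libraries.

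Among 19 growth factor receptors 7 were higher and 4 lower, against 28.9% and 11.4% of all genes. Egfr, the receptor of activated stem cells, stood at 20.1, 28.3, 24.8 and 28.7 TPM in IP libraries against 9.00, 7.14, 9.06 and 7.76 TPM in input libraries, with a log2 difference of 1.51 ± 0.18 (SE, adjusted p = 3.42e-05). Fgfr1, a receptor for fibroblast growth factor, and Ptprz1, a receptor phosphatase of radial glia, differed by 1.42 and 1.20, and Kit, the stem cell factor receptor, by −0.98. Guidance, adhesion and migration genes were higher in 21 of 36 and lower in 2, with a median of 0.56; median of ratios made this 16 and 8. Without the 2 libraries that stood apart 1 gene was lower. Cxcr4, the chemokine receptor that positions progenitors, stood at 17.6, 33.7, 36.8 and 33.2 TPM in IP libraries against 3.32, 0.980, 4.17 and 3.71 TPM in input libraries. Its fractions did not overlap, with a log2 difference of 2.99 ± 0.27 (SE, adjusted p = 6.24e-06), while its ligand Cxcl12 differed by −0.77. The semaphorin receptors Plxna2, Plxnb2 and Plxna3 differed by 1.74, 1.55 and 2.11. The other lower gene was Reln, the positioning signal made by interneurons, at −0.58.

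GABA excites newborn neurons before it inhibits mature ones, since young cells hold more chloride. The chloride importer Slc12a2, NKCC1, stood at 46.2, 51.0, 55.7 and 47.1 TPM in IP libraries against 29.9, 42.7, 32.2 and 41.7 TPM in input libraries, and the exporter Slc12a5, KCC2, at 86.1, 73.3, 93.9 and 79.4 TPM in IP libraries against 187, 195, 161 and 175 TPM in input libraries. The importer was higher by 0.45 ± 0.17 and the exporter lower, with −1.10 ± 0.16 (SE, adjusted p = 0.0427 and 1.20e-04). The value of the importer lay little above the median of 0.26 over all genes. Among GABA-A receptor subunits, Gabra2 stood at 294, 315, 304 and 419 TPM in IP libraries against 134, 109, 131 and 153 TPM in input libraries, with a log2 difference of 1.33 ± 0.18 (SE, adjusted p = 7.00e-05). Gabrb2, a beta subunit named here after its values were seen, stood at 46.5, 55.5, 60.2 and 53.5 TPM in IP libraries against 120.4, 131, 110.03 and 153 TPM in input libraries, with a log2 difference of −1.24 ± 0.16 (SE, adjusted p = 6.35e-05). Over the 14 genes of this list 10 were lower and 2 higher, namely Gabra2 and Slc12a2. Gabra2 kept its call after median of ratios and without the 2 libraries that stood apart, while Slc12a2 lost it in each case. Among 15 ionotropic glutamate receptor subunits 3 were higher and 3 lower, against 28.9% and 11.4% of all genes. Without the 2 libraries that stood apart none was lower, and when 1 library was left out the lower count lay between 0 and 5. The higher ones were the kainate subunits Grik1 and Grik2 and the AMPA subunit Gria3, by 0.73, 0.67 and 0.63, and the lower ones included the NMDA subunits Grin1 and Grin2a, at −0.50 and −0.53.

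Among 20 neural RNA-binding proteins 6 were higher and 2 lower, shares near the 28.9% and 11.4% of all genes. The list median was 0.01, or −0.22 after median of ratios. Ptbp1, the splicing repressor of progenitors, stood at 41.8, 50.3, 52.2 and 50.5 TPM in IP libraries against 20.8, 11.1, 18.4 and 11.6 TPM in input libraries, with a log2 difference of 1.64 ± 0.21 (SE, adjusted p = 6.23e-05). Msi1, musashi of stem cells, differed by 1.04, and the lower genes were the splicing factors of mature neurons Rbfox1 and Rbfox3 (NeuN), at −0.81 and −0.61. Immediate early genes, which neuronal activity induces, were lower in 8 of 18 and higher in 2. Without the IP library sedentary b, and also without the 2 libraries that stood apart, 5 were lower. Arc, which acts at active synapses, stood at 14.1, 14.0, 16.7 and 18.7 TPM in IP libraries against 28.6, 28.1, 25.9 and 26.5 TPM in input libraries. The IP values were all below the input values, with a log2 difference of −0.75 ± 0.15 (SE, adjusted p = 0.00174). The transcription factor Egr3 and the neurotrophin Bdnf differed by −1.02 and −0.96.

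The 15 largest differences in each direction were taken among called genes with at least 5 TPM in the higher fraction and no overlap, histone copies and unnamed gene models left aside (52 histone genes and 268 other genes past 2-fold higher, and 25 other genes past 2-fold lower). On the higher side, Igfbpl1, Top2a, Eomes, Draxin, Sema3c, Tpx2 and Dpysl5 have been described. Etl4, which encodes a cytoskeletal protein (chromosome 2, 19909780 to 20810713, plus strand), stood at 5634, 5826, 5605 and 6464 TPM in IP libraries against 32.4, 29.6, 31.5 and 29.96 TPM in input libraries. The fractions lay more than 7 log2 units apart, at 7.53 ± 0.17 (SE, adjusted p = 2.18e-12). The same gap was seen later, with 7.53 at day 11, 7.08 at day 18 and 7.06 at day 27. Hcfc1, a chromatin cofactor, stood at 3633, 2575, 4118 and 3658 TPM in IP libraries against 58.4, 36.2, 47.2 and 41.5 TPM in input libraries, and Sptb, erythroid beta spectrin, at 6548, 3958, 7583 and 5857 TPM in IP libraries against 92.2, 113, 75.4 and 107 TPM in input libraries. Their differences were 6.22 ± 0.20 and 5.91 ± 0.22 (SE, adjusted p = 1.13e-10 and 6.11e-10). Unc13b, a vesicle priming protein, Fat4, a giant cadherin, Birc6, an inhibitor of apoptosis, and Herpud1, of the unfolded protein response, differed by 5.16, 4.17, 3.94 and 3.37. Sptb too had a like difference later, with 5.91 at day 11, 5.90 at day 18 and 5.87 at day 27. These levels are sums per gene and do not show which part of the gene the reads came from. Apoo-ps, a processed pseudogene, had 75.7, 22.4, 37.6 and 34.9 TPM in IP libraries against 20.04 TPM in the input library running a, and was listed at 0 in the other input libraries. Its call (adjusted p = 0.0443) was lost at a pseudocount of 0.1 (adjusted p = 0.0541) and without any 1 of the 4 sedentary libraries (adjusted p = 0.119 to 0.1397).

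On the lower side, several genes encode neuropeptides. Besides Sst, these were Cort, cortistatin, at −2.41, Tac1, the substance P precursor, at −2.19, Npy, neuropeptide Y, at −2.04, Adcyap1, which encodes PACAP, at −1.998, and Penk, proenkephalin, at −1.93. Npy stood at 46.4, 18.03, 28.3 and 26.4 TPM in IP libraries against 128, 113, 133 and 104 TPM in input libraries, with no overlap and with a log2 difference of −2.04 ± 0.25 (SE, adjusted p = 9.74e-05). Aldh1a1, a retinoic acid synthesizing enzyme, stood at 26.5, 28.1, 26.5 and 17.5 TPM in IP libraries against 105, 121, 87.99 and 104 TPM in input libraries. It was lower in each IP library, with a log2 difference of −2.05 ± 0.17 (SE, adjusted p = 1.11e-06). Apod, a lipid carrier of oligodendrocytes, differed by −1.94 and the noncoding RNA Rmrp of the ribonuclease MRP complex by −2.25.

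Classes of RNA differed too. Malat1, a nuclear noncoding RNA, took 3.08 to 3.93% of all TPM in the IP libraries and 0.837 to 1.51% in the input libraries, and 5 of 12 long noncoding RNAs of the list were higher and none lower. Among annotated types, 48 of 241 antisense genes (19.9%) were at least 2-fold higher and none was at least 2-fold lower, against 1394 (9.86%) and 388 (2.74%) of 14141 protein-coding genes. Whether counting used strand is not given in the sources used here, and reads of an antisense gene and of its partner may be mixed. Nuclear genes of oxidative phosphorylation, the mitochondrial respiratory chain, were lower in 42 of 79 and higher in 1. Ndufc1 of complex I stood at 81.2, 92.98, 49.03 and 50.5 TPM in IP libraries against 141, 255, 198 and 225 TPM in input libraries, with a log2 difference of −1.59 ± 0.19 (SE, adjusted p = 2.97e-05). The list median was −0.52, and without the 2 libraries that stood apart 24 genes were lower and none was higher. Without the IP library sedentary b 26 were lower. Cytosolic ribosomal protein genes were lower in 10 of 84, near the 11.4% of all genes, and higher in 2, below the 28.9% of all genes. The lower count was 22 after median of ratios and 3 without the 2 libraries that stood apart. Over all genes, 3263 of 16184 and 1148 of 15935 were lower in these 2 settings. When 1 library was left out, the lower count lay between 2 and 19 and the higher count between 0 and 10. By transcript length, the median difference was 0.14 in the 3536 shortest protein-coding genes and 0.29 in the 3534 longest.

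Whether the fraction difference at day 11 was particular to that day was tested in a fit of all 24 libraries, as the IP-input difference at day 11 minus the mean of those at days 18 and 27. Of 19507 genes 2176 (11.2%) had a higher and 1362 (6.98%) a lower difference at day 11. The number of higher genes was 715 without the input library sedentary b, 880 without the IP library sedentary b and 1139 without the IP library running b, and that of lower genes 521 and 697 without the first 2 of these and 881 without the IP library running a. Olfactory receptor genes averaged 0.518 to 2.58 TPM in the day 11 input libraries, 4.67 to 9.78 TPM in those of day 18 and 1.74 to 3.66 TPM in those of day 27. Of the 2176 genes, 442 were olfactory and 106 vomeronasal receptors, and 1288 (59.2%) averaged under 2 TPM in the IP of day 11. Among the 10 largest by the naming rule, Ccnb1 belongs to the mitosis list. The others were Slxl1, Vmn1r158, Vmn1r183, Olfr1002, Olfr1154, Olfr825, Defa3, Defa6 and Defa23, genes of receptors, defensins and a germline protein. A comparison with day 27 alone, whose input is closer to that of day 11 in this background, called 23 genes higher (0.131%) and 113 lower (0.644%) of 17553, with 1 vomeronasal and no olfactory receptor among the 23.

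Mitotic genes had a larger fraction difference at day 11 than later. The list median was 2.29 at day 11, 1.20 at day 18 and 1.34 at day 27, and 22 of 25 genes were called higher at day 11 against the mean of days 18 and 27, 3 of them (Cenpf, Kif11 and Nusap1) against day 27 alone. The median over all genes was 0.26, 0.21 and 0.30 at those days. Over all genes, 11.2% were called higher against the mean of the later days and 0.131% against day 27 alone. Summed TPM of the list in the IP was 542 ± 71.4 at day 11, 404 ± 74.2 at day 18 and 305 ± 15.9 at day 27 (SD, n = 4 each). In the input it was 82.1 ± 15.5, 219.8 ± 45.9 and 106 ± 24.1 at the same days. The IP sum was highest at day 11, and the input sum was highest at day 18. Against day 27 alone, Neil3, a DNA glycosylase of dividing cells, differed by 2.07 ± 0.36 (SE, adjusted p = 0.0278), Shcbp1, a spindle midzone protein, by 1.89 ± 0.31 (SE, adjusted p = 0.0217), and the condensin subunit Ncapg by 1.69 ± 0.26 (SE, adjusted p = 0.0210). Mad2l1, of the spindle checkpoint, and Neurod4, of the progenitor list, differed by 1.60 and 1.67. Of 26 replication genes 10 and of 15 progenitor genes 4 were called higher at day 11 against that mean, with medians of 1.64 at day 11, 1.22 at day 18 and 1.10 at day 27 for replication and 1.72 at day 11, 1.55 at day 18 and 1.49 at day 27 for progenitors. Against day 27 alone, 1 progenitor gene, Neurod4, and no replication gene was called in limma. An unadjusted p under 0.05 in that comparison was seen in 13 of 26 replication genes and in 2662 of 17553 genes tested. Summed TPM of the replication list in the IP was 1569 ± 273 at day 11, 1770 ± 113 at day 18 and 1778 ± 234 at day 27, and in the input 746 ± 307, 3009 ± 863 and 1159 ± 217 (SD, n = 4 each). Unlike the mitotic sum, its mean in the IP was lowest at day 11. None of the 21 stem cell genes was called in either direction against the mean of the later days in limma. Of them 1 had an unadjusted p under 0.05, against 6692 of 19507 genes tested.

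Mature granule neuron genes had a more negative fraction difference at day 11. Their median was −1.18 at day 11, −0.56 at day 18 and −0.38 at day 27. Against the mean of days 18 and 27, 13 of 24 were called lower at day 11, while 6.98% of all genes were. Against day 27 alone 4 were called lower, while 0.644% of all genes were. Among these 4, the synaptic kinase gene Camk2a had −0.99 ± 0.20 (SE, adjusted p = 0.0419) and Icam5, a dendritic adhesion protein, −1.17 ± 0.17 (SE, adjusted p = 0.0210). The other two were Camk2b and Camkv. In the IP the list summed to 5365 ± 323 TPM at day 11, 6346 ± 521 at day 18 and 8484 ± 1684 at day 27, and in the input to 13590 ± 1023, 10160 ± 854 and 13150 ± 322 TPM (SD, n = 4 each). The immediate early gene Egr3 had −1.02 at day 11, −0.03 at day 18 and 0.22 at day 27, a difference between days of −1.12 ± 0.20 (SE, adjusted p = 0.00277). The sodium-calcium exchanger Slc8a2 and the adhesion protein Clstn3 also had lower differences at day 11, of −1.21 and −1.06. Lars2, mitochondrial leucyl-tRNA synthetase, had the largest such difference, −1.40 ± 0.27 (SE, adjusted p = 0.00392). Its levels at day 11 were 843, 913, 2364 and 3157 TPM in IP libraries against 3434, 1302, 2283 and 1826 TPM in input libraries, with overlap. Igfbpl1 and Dcx did not pass, with 4.71 at day 11, 4.79 at day 18 and 4.61 at day 27 for Igfbpl1 and 3.13 at day 11, 2.85 at day 18 and 2.62 at day 27 for Dcx. A p that misses the threshold does not show that they were equal.

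**Figure D3:**
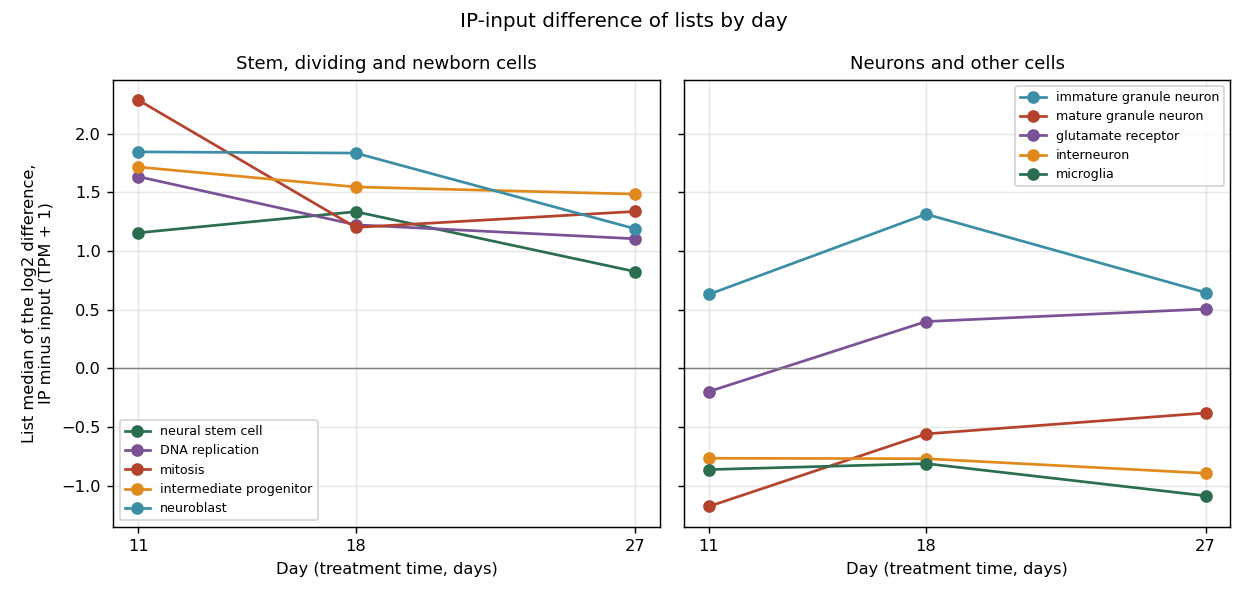
List medians of the log2 difference, IP minus input, at days 11, 18 and 27. Mitosis has its highest median at day 11 (2.29) and the mature granule neuron list its lowest (−1.18).

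Activity was compared as the fraction difference of running mice minus that of sedentary mice, with 2 libraries a group. No gene passed an adjusted p of 0.05 in limma (lowest 0.931), and 235 of 16184 genes had an unadjusted p under 0.05. That share is smaller than 0.05 itself, and none of the genes named next was called. The genes of lowest p were Xkrx, Mlph, Dynlt1a, Nop10 and Uchl3 with a higher and Ccdc8, Lars2, Gabrd, Oaz1-ps and Arhgef1 with a lower difference in running mice. Xkrx stood at 62.3, 72.95, 36.6 and 55.5 TPM in IP libraries against 126, 125, 260.03 and 303 TPM in input libraries, and its running minus sedentary difference was 1.73 ± 0.34 (SE, unadjusted p = 1.62e-04). For Lars2 the values given with the days show lower IP levels in both running libraries than in both sedentary libraries, while its input values overlapped. Such a test with 2 libraries a group does not show that running left the precipitate unchanged.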

How the data were processed

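RNA of the dentate gyrus was sequenced from 12 IP and 12 input libraries of the series, placed in 12 groups of 2 by their labels, and the 8 of day 11 were used here. Libraries were made from total RNA with a stranded kit, per the labels. RSEM and mm10 are named in the submitters' processing notes, while its version, the aligner, annotation and use of strand were not given in the sources used here. The authors deposited 1 table of TPM for 23306 genes, each column summing to 1000000. TPM keeps no depth, so no counting interval was computed. GENCODE M21 (GRCm38, the same assembly as mm10) held 21658 of the gene names and gave coordinates and gene types. Symbols that had become dates (27 names) were left unnamed. An exact 0 is written as listed at 0.

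Genes were tested by limma (version 3.58.1, R version 4.3.3, eBayes with its trend and robust options) with group means on log2(TPM + 1), for genes averaging at least 1 TPM in the fit, with two-sided p-values adjusted by the Benjamini-Hochberg method over all genes tested. The first fit held the 8 day 11 libraries, with activity kept as a term, and the day comparison held all 24. A gene was called at an adjusted p under 0.05, and 2-fold means a log2 difference of at least 1 on that scale. The fits were run on simulated data with known changes and independent noise per gene. That simulation held no shift of whole libraries, fractions or days, so it does not cover such shifts in these data. Gene lists, members and rules were chosen with earlier results of these data known, and 26 names stand in more than 1 list. Genes named were the 15 largest differences in each direction (10 for days, 5 of lowest p for activity) under the limits given beside them, up to 5 members of lowest p in each list, members that went against their list, and a set of stage and cell type markers given in any case. A few genes that these rules take are left out of the text. Genes named for the comparison with day 27 alone, for missed calls, and a few list members beyond that rule (Dll3, Rbpj, Hes5, Hes1, and Cdk1 beside its promoter) were chosen after their values were seen. Alternatives covered scaling, abundant noncoding RNAs, pseudocount (0.1 and 5), filter, moderation, libraries left out and a replicate block. Promoter sequences are from RefSeq on GRCm38.p6, with a promoter found for 11756 of the tested genes.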

Additional observations from a re-analysis of the deposited data

Results flagged for a closer look

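Among 158 sets of 4 libraries of a fraction, 12 held a library far from the other 3 of its fraction. Chance alone marks some such sets. The sets share libraries and genes, so no number expected by chance is given. In the IP library running a, Rpph1 was highest at 17.36% of all TPM, the level of the Notch pathway list was lowest at 3.734 and that of the guidance, adhesion and migration list lowest at 5.382 (both as mean log2(TPM + 1)). In that library Unc13b was also lowest at 446.4 TPM, in a set whose other values lay within 1 TPM of each other, and Calb1 was highest at 109.96 TPM. In the IP library sedentary a, the level of cytosolic ribosomal protein genes was lowest at 7.848 and Pvalb lowest at 3.46 TPM. In the IP library sedentary b, Aldh1a1 was lowest at 17.53 TPM. Among the input libraries, olfactory receptor genes were highest in sedentary a at 2.58 TPM on average, Apoo-ps was highest in running a at 20.04 TPM, Pvalb was lowest in running b at 18.15 TPM, and Gad2 was highest in sedentary b at 80.35 TPM.

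The named genes whose IP-input difference at day 11 differed from the mean of days 18 and 27 were marked by the limma test of that difference. On the higher side these were Slxl1 at 3.07, Vmn1r158 at 2.65, Vmn1r183 at 2.57, Ccnb1 at 2.54, Olfr1002 at 2.48, Defa23 at 2.46, Defa3 at 2.45, Defa6 at 2.44, Olfr1154 at 2.42 and Olfr825 at 2.41 on the log2 scale. On the lower side they were Lars2 at −1.40, Rps27 at −1.32, Slc8a2 at −1.21, Pnmal2 at −1.20, Rims4 at −1.13, Egr3 at −1.12, Map1a at −1.09, Lmtk3 at −1.07, Clstn3 at −1.06 and Lmna at −1.04. Olfactory receptor signal was higher in the day 18 inputs than in those of day 11, and its part in the higher values was not tested.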

How the results depend on the processing

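Genes higher in the IP numbered 4673 and ranged from 3112 to 5144 when 1 library was left out. They numbered 2722 in the letter a libraries, 7161 in the letter b libraries and 1787 in the running libraries alone. Genes lower in the IP numbered 1851, with 1301 to 2148 when 1 library was left out, 3263 after median of ratios, 714 in running libraries alone and 1148 without the 2 libraries that stood apart, an alternative chosen after seeing the data. Past 2-fold higher were 1690 genes, with 1264 to 2242 when 1 library was left out, 1010 after median of ratios, 762 at a pseudocount of 5 and 3504 with letter b. Past 2-fold lower were 416, with 849 after median of ratios and 676 with letter a. The day comparison called 2176 genes higher, with 1179 at a pseudocount of 0.1, 593 at a filter of 5 TPM, 23 against day 27 alone, 4731 against day 18 alone and 715 to 3245 when 1 library was left out. It called 1362 lower, with 113 against day 27 alone and 521 to 1705 when 1 library was left out.

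Deviations of same-named IP and input libraries correlated at −0.422, −0.0864, 0.00104 and −0.146, which gave no sign of pairing by name. Each fraction may hold technical deviations of its own, so these values do not show whether same-named libraries came from the same mice. With a replicate block, 4456 genes were higher and 1812 lower at day 11, 1054 were higher and 625 lower in the day comparison, and 6 were called for activity, against 0 without it. Of the 30 genes with the largest differences, Apoo-ps alone lost its call in any of the alternatives run. Rpl22, which was not called, turned positive with letter a (0.245) and ranged from −0.298 to 0.0579 when 1 library was left out. Cldn5, also not called, turned positive with letter b (0.676) and without the 2 libraries that stood apart (0.0371), and ranged from −0.618 to 0.505 when 1 library was left out. The cause of these shifts was not tested. Depth is unknown, so low genes could not be given counting limits.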
